A study of Mus musculus with 64 samples.

Results

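The hypothalamus of mice that had received a single injection of psilocybin 4 weeks earlier was compared with that of mice injected with saline at the same time. The comparison was defined by the column names of the deposited count table and covered 16 of the 64 samples of the series, 8 after psilocybin and 8 after saline, each from a different mouse. The mice were C57BL/6J males, 10 weeks old when assigned to treatment, kept in groups and fed chow. The psilocybin group received 3 mg/kg intraperitoneally and the saline group isotonic saline by the same route. Per the study's methods, mice had received sham injections of saline in the days before dosing. The whole hypothalamus was dissected in the morning, 4 h after the lights came on, and each cage number occurred once in each group. RNA of cages 1 to 4 was extracted in pool A and RNA of cages 5 to 8 in pool B. Libraries are named here by treatment and cage number, and values are given with all 16 libraries and, where stated, without the library psilocybin 5, which had by far the lowest quality weight of the series.

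Psilocybin is converted in the body to psilocin, which activates serotonin receptors and above all the 5-HT2A receptor. The hypothalamus holds the neurons that sense energy state and set appetite, with Pomc and Cartpt neurons of the arcuate nucleus lowering food intake and Agrp and Npy neurons raising it. It also makes oxytocin, vasopressin and the hormones that control the pituitary, and it receives serotonergic fibres that act on 5-HT2C and 5-HT1B receptors of the arcuate neurons. The comparison asks whether a single dose leaves a lasting mark on the transcriptome of this tissue.

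Counted reads lay between 8210257 and 27490537 per library after psilocybin and between 8061033 and 33947174 after saline. The summed level of 16 transcription factors that mark the hypothalamus, in CPM (counts divided by the normalized library size), ran from 141 to 223 after psilocybin with a median of 172, and from 143 to 198 after saline with a median of 167. Every library expressed Otp and Nkx2-1, regulators of hypothalamic development, and the groups overlapped in each of them. The quality weight, a measure of how closely a library follows its group over all genes, was 0.0276 for psilocybin 5 against 0.649 to 2.64 for the other 15 libraries. Several libraries also held transcripts of tissues outside the hypothalamus, described with the genes they touch.

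No gene passed the test at 4 weeks. Among 18971 genes, 0 (0%) were called by the quasi-likelihood test of edgeR after Benjamini-Hochberg adjustment, and the smallest adjusted p was 0.448. At an unadjusted p under 0.05, 1647 genes were higher after psilocybin (8.68%) and 176 were lower (0.928%). Without psilocybin 5, the same test again called 0 of 18890 genes, and the counts at an unadjusted p under 0.05 were 279 higher (1.48%) and 82 lower (0.434%). In a bulk sample, a lower number of cells of a type and less RNA in each cell cannot be told apart. No gene had groups of 8 that did not overlap in CPM, and none had when the 7 other psilocybin libraries were set against the 8 saline libraries.

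The asymmetry towards higher genes went with psilocybin 5. Of the 1647 higher genes, 1405 had their highest psilocybin value in that library, and of the 176 lower genes, 131 had their lowest psilocybin value there. The sets with and without it shared 272 genes, all in the same direction, which was 14.9% of the first set and 75.3% of the second. Of the 279 higher genes without psilocybin 5, 214 had their highest psilocybin value in psilocybin 3. Without both libraries, 84 genes were higher and 90 lower at an unadjusted p under 0.05, and 0 were called. The count also depended on the fit, with 243 genes at an unadjusted p under 0.05 when only the 16 libraries were filtered and fitted (16631 genes tested) and 1149 with the cage number as a block.

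**Figure D1:**
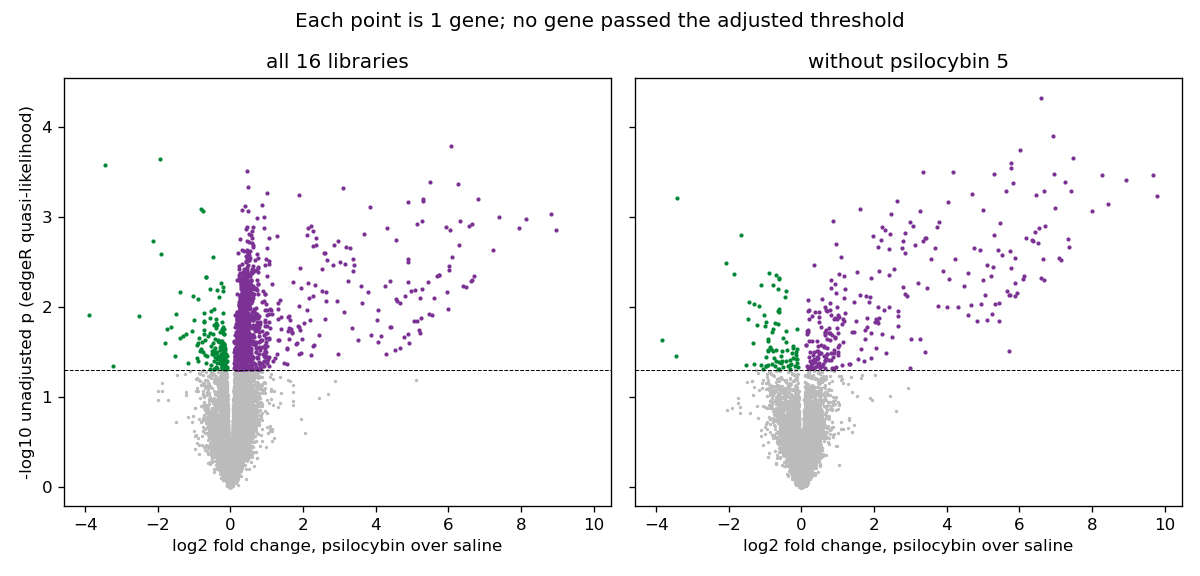
Fitted log2 fold change of psilocybin over saline (x axis) against -log10 of the unadjusted p-value of edgeR's quasi-likelihood test (y axis), 1 point per gene, with all 16 libraries on the left and without psilocybin 5 on the right. The dashed line marks the unadjusted threshold of 0.05. Purple points are higher and green points lower after psilocybin, 1647 and 176 genes on the left and 279 and 82 on the right, and 0 passed the adjusted threshold in either panel.

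Other tests called few genes or none. Weighted voom, the kind of fit the study used, was run here on the same 62 libraries as edgeR. It gives each library a weight and called 0 genes, with 785 at an unadjusted p under 0.05. DESeq2 called 13 genes (0.0685%), 12 higher and 1 lower, and 28 (0.148%) without psilocybin 5. All 12 higher genes, and 27 of the 28 without psilocybin 5, had their highest level of the 16 libraries in psilocybin 3. The only lower gene in both fits was Tph1, whose highest level was in saline 3.

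The precision of the comparison was described by its intervals. Their variance was estimated over all libraries of the fit, of both regions and times, and not over these 16 alone. For Htr2c without psilocybin 5 the standard error was 0.24, and 0.07 with the other 15 libraries fitted alone. For Pomc it went the other way, from 0.28 with all libraries to 0.38 with the 16 fitted alone. The 95% interval of the log2 fold change lay within 1 of 0, that is within a change of 2-fold, for 86.9% of genes with all libraries and for 88.1% without psilocybin 5. The median standard error was 0.13 with all libraries and 0.12 without it. The median fold change over all genes was 0.01 and 0.00064 on the log2 scale, as scaling centres it near 0.

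Serotonin receptors, the direct targets of psilocin, did not pass the test, and 0 of 12 tested reached an unadjusted p under 0.05 in either direction. Over all genes, 8.68% were higher and 0.928% lower at that level with all libraries, and 1.48% and 0.434% without psilocybin 5. Without psilocybin 5, counts of 0 in this and the later lists are near those shares. Their median log2 fold change was -0.07 with all libraries and 0.0016 without psilocybin 5. The receptors Htr2b and Htr3b of the same list were too low to be tested. By TPM (a level scaled for gene length and depth), Htr2c was the highest receptor in the saline group at 49.4 ± 4.71 (SD, n = 8), followed by Htr7 at 39.8 ± 6.2. Next came Htr1a at 15.7 ± 2.07, Htr1b at 12.3 ± 1.51, Htr5a at 11.2 ± 1.11 and Htr2a at 9.83 ± 1.45 TPM (SD, n = 8), and in this order the ranges of 1 SD of neighbours overlapped except between Htr7 and Htr1a.

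Htr2a encodes the 5-HT2A receptor and lies at chr14:74640840-74709494 of GRCm38. Its CPM after psilocybin ran from 5.67 to 19.2 with a median of 13.8, and after saline from 10.4 to 15.6 with a median of 13.5. The groups overlapped, and psilocybin 5 was the lowest library of all. The log2 fold change was -0.02 ± 0.17 (SE) with all libraries and 0.09 ± 0.16 without psilocybin 5, with a 95% interval of -0.23 to 0.42 in the second fit (edgeR adjusted p = 0.978 and 1).

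Htr2c encodes the 5-HT2C receptor, through which serotonin lowers food intake. It ran from 36.4 to 136 CPM after psilocybin with a median of 116, and from 99 to 125 CPM after saline with a median of 114. Psilocybin 5 lay far below the other 7 psilocybin libraries, whose lowest was 92.4 CPM. The log2 fold change of Htr2c was -0.13 ± 0.25 with all libraries and 0.00082 without psilocybin 5, with an interval of -0.49 to 0.49 (SE). Htr1a (5-HT1A) differed by 0.1 ± 0.12 and Htr1b (5-HT1B) by 0.07 ± 0.15 on the log2 scale without psilocybin 5 (SE). With all libraries the values were 0.0080 ± 0.12 and -0.01 ± 0.15 (SE). Htr1f had the smallest p of the list and differed by -0.42 ± 0.32 with all libraries and -0.24 ± 0.31 without psilocybin 5 (SE, edgeR adjusted p = 0.712 and 1).

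Enzymes and transporters of the monoamines gave a like picture, with 0 of 9 tested genes at an unadjusted p under 0.05 in either fit. The shares over all genes are those given for the serotonin receptors. Their median log2 fold change was -0.11 with all libraries and -0.13 without psilocybin 5. The serotonin transporter Slc6a4 and the noradrenaline genes Dbh and Slc6a2 were too low to be tested.

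Of the 10 tested peptides of the arcuate nucleus, 9 were higher in psilocybin 5 than in any other of the 16 libraries, with Nts, neurotensin, as the exception. With all 16 libraries, 3 of 10 were higher at an unadjusted p under 0.05, against 8.68% of all genes, and their median log2 fold change was 0.37 against 0.01 over all genes. Without psilocybin 5, 0 of 10 were, and the median was 0.02 against 0.00064. The members with an unadjusted p under 0.05 in the first fit were Pomc, Sst and Tac2.

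Pomc encodes the precursor of the appetite-lowering melanocortins (chr12:3954951-3960573). It stood at 147 CPM in psilocybin 5, while the other 7 psilocybin libraries ran from 21.9 to 48.8 with a median of 29.3, and the saline libraries ran from 8.03 to 60.4 with a median of 35.1. Only psilocybin 5 lay above the saline range. The log2 fold change was 0.59 ± 0.28 (SE, edgeR adjusted p = 0.489) and, without psilocybin 5, 0.15 ± 0.25 with an interval of -0.35 to 0.66 (edgeR adjusted p = 1). Within pool A, which does not hold psilocybin 5, the value was 0.81. Within pool B it was 0.42, and -0.63 without psilocybin 5.

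Cartpt, Agrp and Npy followed the same pattern. Cartpt, whose peptide lowers food intake, was at 176 CPM in psilocybin 5, against 36.9 to 59.7 in the other psilocybin libraries and 27.5 to 63.9 in the saline libraries. Its log2 fold change was 0.44 ± 0.26 with all libraries and 0.12 ± 0.24 without it (SE). Agrp, which raises food intake by blocking the melanocortin 4 receptor, was at 26.6 CPM in psilocybin 5 and at 2.51 to 9.36 in the others of its group, against 2.09 to 8.78 after saline. Its change went from 0.57 ± 0.29 to 0.06 ± 0.27 when psilocybin 5 was left out (SE), and its listed span overlaps genes on the other strand. Npy, a strong stimulant of feeding, was at 50.2 CPM in psilocybin 5 against 7.3 to 25.1 after saline, and its change turned from 0.19 ± 0.2 to -0.11 ± 0.19 (SE). None of these 3 genes passed the test in either fit.

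Sst encodes somatostatin, which restrains growth hormone release and is made by many interneurons. It was at 356 CPM in psilocybin 5, at 65.8 to 128 in the other 7 and at 76.9 to 117 after saline, and its log2 fold change went from 0.45 ± 0.18 to 0.1 ± 0.14 (SE, edgeR adjusted p = 0.448 and 1). Tac2, the neurokinin B gene of arcuate neurons, was at 116 CPM in psilocybin 5 and at 22.8 to 34.1 in the others of its group, and changed from 0.46 ± 0.2 to 0.01 ± 0.15.

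**Figure D2:**
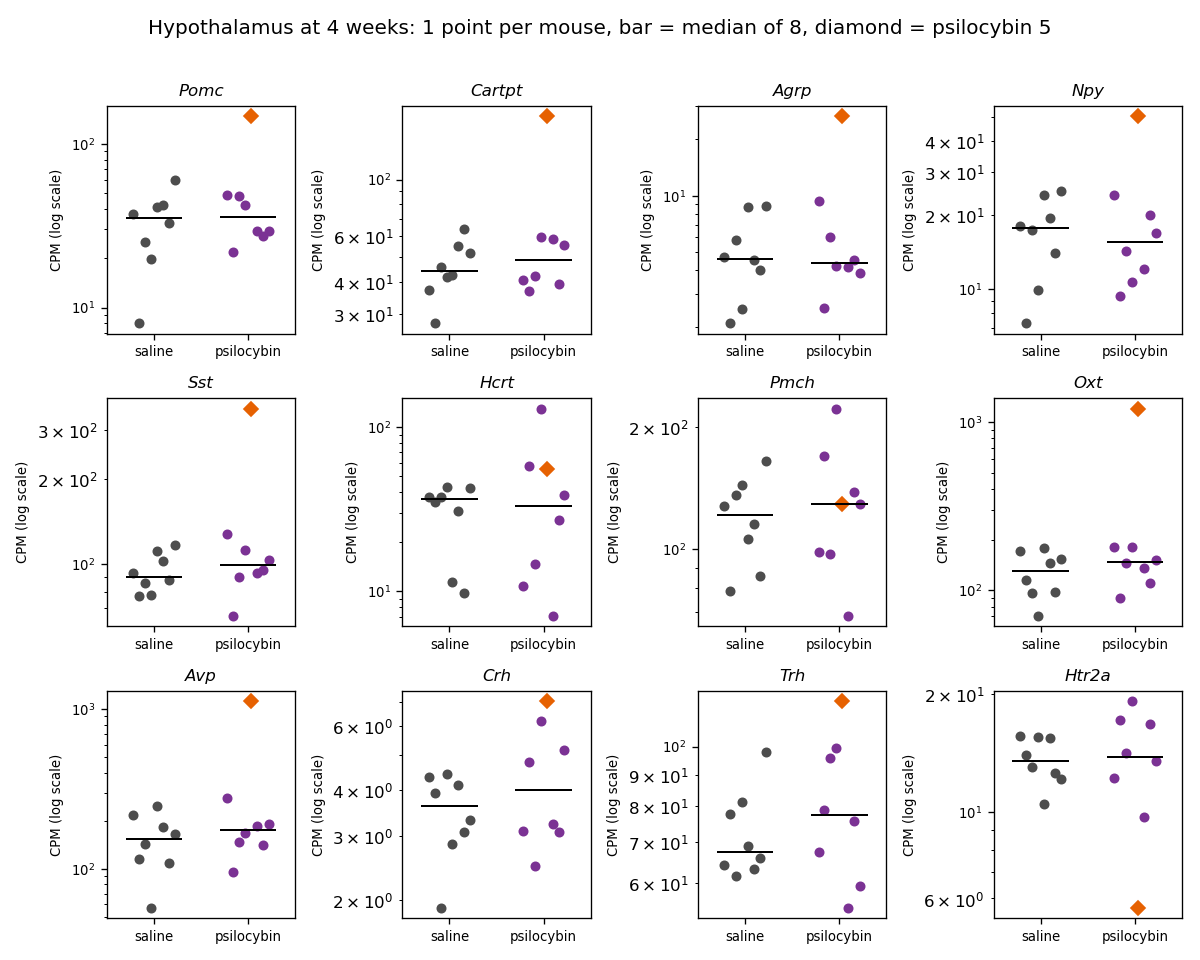
CPM on a log axis of 11 hypothalamic peptide genes and Htr2a in each of the 16 libraries, saline in grey and psilocybin in purple, with the median of each group of 8 as a bar and psilocybin 5 as an orange diamond. Psilocybin 5 is the highest library for Pomc (147 CPM), Cartpt, Agrp, Npy, Sst, Oxt (1201 CPM), Avp, Crh and Trh and the lowest for Htr2a, while Hcrt is highest in psilocybin 4 (129 CPM) and Pmch is highest in psilocybin 4 as well (222 CPM).

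Of 9 tested peptides on the list for the lateral hypothalamus, 0 reached an unadjusted p under 0.05 in either fit, and their median log2 fold change was 0.16 with all libraries and 0.12 without psilocybin 5. Hcrt, the orexin precursor that sustains wakefulness, ran from 7.1 to 129 CPM after psilocybin with a median of 32.9, and from 9.71 to 42.9 CPM after saline with a median of 36.3. The highest library was psilocybin 4 and the lowest psilocybin 6, so the psilocybin group enclosed the saline group. The log2 fold change of Hcrt was 0.47 ± 0.41 with all libraries, and without psilocybin 5 its interval of -0.56 to 1.12 did not keep it within a change of 2-fold. Pmch, the melanin-concentrating hormone that promotes feeding, ran from 68.5 to 222 CPM after psilocybin with a median of 129 and from 78.7 to 165 after saline with a median of 121, and differed by 0.11 ± 0.25 with all libraries and 0.07 ± 0.24 without psilocybin 5 (SE). Qrfp had the smallest p of the list with all libraries, with a change of 0.46 ± 0.38 that was 0.33 ± 0.38 without psilocybin 5 (SE).

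Oxytocin and vasopressin, the hormones of the magnocellular neurons, were the most abundant transcripts of this set in the saline group, with 1079 ± 412 TPM for Avp and 965 ± 279 TPM for Oxt (SD, n = 8). Oxt was at 1201 CPM in psilocybin 5, while the other psilocybin libraries ran from 89.6 to 181 CPM with a median of 145 and the saline libraries from 70.7 to 178 CPM with a median of 131. Avp was at 1121 CPM in psilocybin 5, at 95.2 to 280 in the other psilocybin libraries and at 56.9 to 248 after saline. The log2 fold change of Oxt was 0.94 ± 0.43 with all libraries and 0.21 ± 0.34 without psilocybin 5, where the interval was -0.48 to 0.89 (SE, edgeR adjusted p = 0.473 and 1). For Avp the values were 0.78 ± 0.38 and 0.23 ± 0.32 (SE, edgeR adjusted p = 0.502 and 1). These were the only 2 of the 6 tested members of the oxytocin and vasopressin system higher at an unadjusted p under 0.05 with all libraries, against 8.68% of all genes, and 0 were without psilocybin 5.

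The list of releasing hormones held 10 genes, which were Crh, Trh, Ghrh and Gnrh1, the release-inhibiting Sst, and the urocortins, receptors and binding protein of the Crh family. Of these, Sst alone was higher at an unadjusted p under 0.05 with all libraries, against 8.68% of all genes, and 0 were without psilocybin 5. Crh, which starts the hormonal stress response, ran from 2.47 to 7.03 CPM after psilocybin and from 1.9 to 4.44 after saline, with medians of 4 and 3.63. Its log2 fold change was 0.35 ± 0.19 with all libraries and 0.19 ± 0.19 without psilocybin 5 (SE). Trh, which drives the thyroid axis, ran from 54.7 to 118 CPM after psilocybin and from 61.8 to 98.1 after saline and differed by 0.16 ± 0.33 with all libraries and 0.04 ± 0.32 without psilocybin 5 (SE). Among 14 genes of other neuropeptides and secretory proteins 0 reached an unadjusted p under 0.05 in either fit, and Nucb2, the nesfatin precursor, had the smallest p with 0.15 ± 0.08 with all libraries and 0.07 ± 0.07 without psilocybin 5 (SE).

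The list of receptors for signals of food intake held 20 tested genes, among them the ligand Bdnf and the receptor accessory protein Ramp3, and all 20 had intervals within a change of 2-fold in both fits. Cckbr, a receptor of cholecystokinin and gastrin, had the smallest p with a log2 fold change of 0.26 ± 0.11 with all libraries and 0.24 ± 0.11 without psilocybin 5 (SE, edgeR adjusted p = 0.45 and 1). It ran from 5.7 to 10 CPM after psilocybin with a median of 7.4 and from 5.24 to 7.71 CPM after saline with a median of 6.44, and the groups overlapped. Mchr1, the receptor of melanin-concentrating hormone, was the other member with an unadjusted p under 0.05 with all libraries, at 0.23 ± 0.1, and was at 0.18 ± 0.1 without psilocybin 5 (SE). These were 2 of 20 against 8.68% of all genes that were higher, and 1 of 20 against 1.48% without psilocybin 5. Lepr, the leptin receptor, ran from 0.921 to 5.95 CPM after psilocybin and from 3.05 to 10.9 after saline, with psilocybin 5 the lowest and saline 3 the highest library, and differed by -0.39 ± 0.25 with all libraries and -0.22 ± 0.23 without psilocybin 5 (SE). Mc4r, the receptor on which Pomc and Agrp products compete, ran from 2.03 to 3.87 CPM after psilocybin and from 2.01 to 3.63 after saline, and differed by -0.02 ± 0.21 with all libraries, with an interval of -0.43 to 0.44 without psilocybin 5 (SE). Of 8 tested genes that process or modulate melanocortins, Scg5, a chaperone of prohormone convertase 2, was higher at an unadjusted p under 0.05 with all libraries, against 8.68% of all genes, and 0 were without psilocybin 5. It was at 402 CPM in psilocybin 5 and at 188 to 202 in the other psilocybin libraries, against 181 to 207 after saline, and the change of 0.18 ± 0.08 became -0.0014 ± 0.05 without psilocybin 5 (SE).

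Neurotrophin and plasticity genes, which psychedelics are known to engage soon after a dose in the cortex, held no call in edgeR, as held for every gene tested. Of 17 tested, 0 reached an unadjusted p under 0.05 in either fit, and the median log2 fold change was -0.04 with all libraries and 0.0016 without psilocybin 5. Bdnf, a neurotrophin that supports synaptic growth, ran from 10.8 to 15.8 CPM after psilocybin with a median of 13.4 and from 10.7 to 18.1 CPM after saline with a median of 14.2. Its log2 fold change was -0.09 ± 0.09 with all libraries and -0.07 ± 0.09 without psilocybin 5, with an interval of -0.26 to 0.12 (SE, edgeR adjusted p = 0.784 and 1). Syp, a protein of synaptic vesicles, was at 1113 CPM in psilocybin 5 and at 582 to 775 in the other psilocybin libraries, and differed by 0.0016 ± 0.07 without it (SE). Without psilocybin 5, the interval of the receptor Ntrk2 lay between -0.12 and 0.1 and that of Dlg4, a scaffold of the postsynaptic density, between -0.11 and 0.11.

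Immediate early genes, which neurons switch on for a short time after activity, gave 1 of 20 higher at an unadjusted p under 0.05 in each fit, against 8.68% of all genes with all libraries and 1.48% without psilocybin 5, and these were different genes. The median log2 fold change was 0.15 with all libraries and 0.18 without psilocybin 5, with 16 of 20 positive in each fit, and 0.0093 with 10 of 20 positive without psilocybin 3 and 5. Over all genes, 9911 of 18971 were positive with all libraries and 9519 of 18890 without psilocybin 5. Their summed level was highest in psilocybin 3 at 367 CPM and next in psilocybin 5 at 315 CPM, against 187 to 256 after saline. The gene higher with all libraries was Jund, at 115 CPM in psilocybin 5, 16.8 to 50.5 in the other psilocybin libraries and 18 to 33.5 after saline, with a log2 fold change of 0.56 ± 0.22 that became 0.07 ± 0.18 without psilocybin 5 (SE). Without psilocybin 5 it was Fosb, at 0.45 ± 0.21 (SE, edgeR adjusted p = 1), whose highest library was psilocybin 3 at 4.37 CPM against 0.944 to 1.93 after saline. Without psilocybin 3 as well, Fosb differed by 0.17. Fos itself was highest in psilocybin 3 (34 CPM) and next highest in saline 3 (17.8 CPM), and differed by 0.24 ± 0.38 without psilocybin 5 (SE).

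Of the receptors for fast transmission, 0 of 22 glutamate and 0 of 16 GABA receptor genes reached an unadjusted p under 0.05 in either fit. With all libraries, 17 of 22 glutamate receptor genes and 15 of 16 GABA receptor genes had a negative fold change, against 9060 of 18971 over all genes. Without psilocybin 5 it was 9 of 22, with a median of 0.0085, and 14 of 16, with a median of -0.04, against 9371 of 18890. Grin3a, an NMDA receptor subunit, was at 68.7 CPM in psilocybin 5 and at 99.8 to 122 in the other psilocybin libraries, and its change went from -0.13 ± 0.07 to -0.06 ± 0.06 without that library (SE). Gabbr2, a GABA-B receptor subunit, differed by -0.19 ± 0.1 and -0.12 ± 0.09 in the same pair of fits (SE). All genes of both lists had intervals within a change of 2-fold in either fit.

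Clock genes, thyroid genes and genes of the glucocorticoid response also held no call in edgeR, again as held for every gene tested. Of 19 clock genes, 0 reached an unadjusted p under 0.05, and Rora, an activator of the clock loop, had the smallest p with -0.35 ± 0.17 with all libraries and -0.23 ± 0.17 without psilocybin 5 (SE). Rora is also on the list of thalamus markers, tissue outside the dissected region. All 10 of those were negative without psilocybin 5, with a median of -0.29. Of 10 thyroid genes 0 did, with Slco1c1, a thyroid hormone transporter, at -0.16 ± 0.12 with all libraries and -0.07 ± 0.12 without psilocybin 5 (SE). Among 14 genes of glucocorticoid signalling, which were targets together with the receptors Nr3c1 and Nr3c2 and the enzyme Hsd11b1, Sult1a1, a sulfotransferase, was at 0.65 ± 0.25 with all libraries and 0.65 ± 0.27 without psilocybin 5 (SE, edgeR adjusted p = 0.448 and 1). It ran from 4.87 to 26 CPM after psilocybin and from 4.87 to 8.81 after saline, psilocybin 3 was the highest library, and without psilocybin 3 and 5 the value was 0.19. Mt1, a metallothionein, was the other of the 2 members of 14 higher at an unadjusted p under 0.05 with all libraries (8.68% of all genes), at 750 CPM in psilocybin 5 and 94.3 to 165 in the other psilocybin libraries. Without psilocybin 5, 1 of 14 was higher at that level, against 1.48% of all genes. Without psilocybin 3 and 5, 0 of 14 were, against 84 of all 19092 genes.

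**Figure D3:**
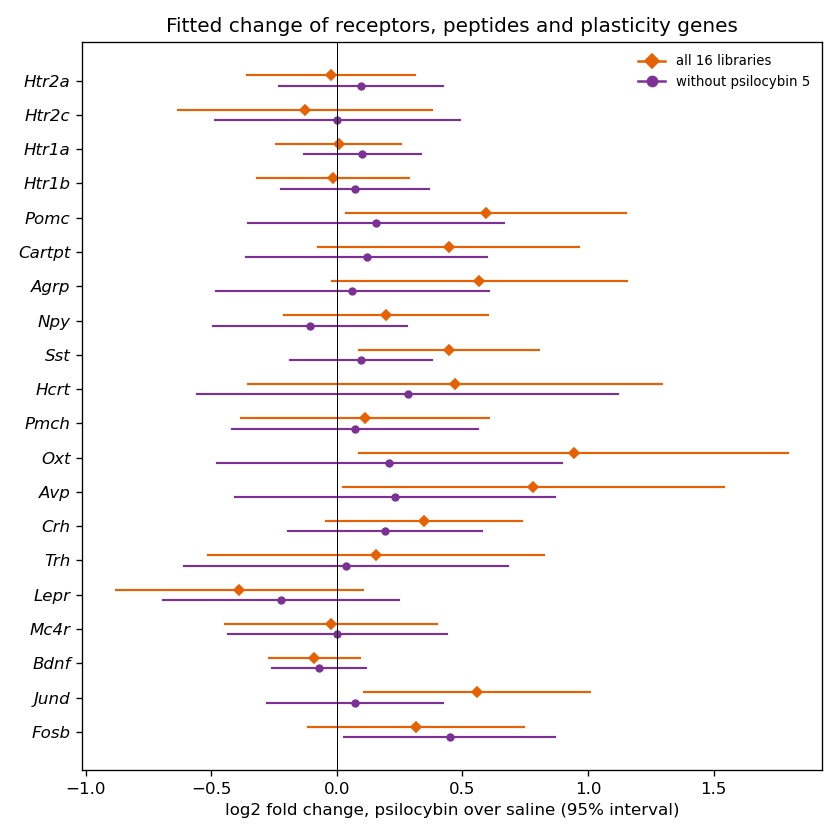
Fitted log2 fold change of psilocybin over saline with its 95% interval for 20 receptor, peptide and plasticity genes, with all 16 libraries (orange diamonds) and without psilocybin 5 (purple circles). The interval of Oxt moves from 0.09 to 1.8 to -0.48 to 0.89 when psilocybin 5 is left out, and Fosb is the only gene drawn whose interval without that library leaves out 0.

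The genes with the smallest p-values fell into those that rested on 1 library and those that did not. Gpt, alanine aminotransferase 1, lies at chr15:76695716-76699675 and was the most even of them. It ran from 11.6 to 20.1 CPM after psilocybin with a median of 12.4, and from 9.44 to 12.1 CPM after saline with a median of 9.6. A single saline library, saline 1, reached into the psilocybin range, and psilocybin 5 and psilocybin 3 were the highest. Its log2 fold change was 0.45 ± 0.12 with all libraries, 0.35 ± 0.11 without psilocybin 5 and 0.27 without psilocybin 3 and 5, with edgeR adjusted p of 0.448, 0.817 and 1 (SE). Within pool A it was 0.38 and within pool B 0.54, or 0.3 in pool B without psilocybin 5.

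Fst, follistatin, an activin antagonist at chr13:114452290-114458949, was the most even of the lower genes. It ran from 0.258 to 0.835 CPM after psilocybin with a median of 0.486, and from 0.518 to 1.12 CPM after saline with a median of 0.928. Saline 7 was the lowest saline library, psilocybin 2 and 4 were the highest after psilocybin, and the groups overlapped at levels where few reads were counted. The log2 fold change was -0.82 ± 0.23 with all libraries and -0.7 ± 0.24 without psilocybin 5 (SE, edgeR adjusted p = 0.448 and 0.915), and it was -0.54 within pool A and -1.10 within pool B.

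Ifi204, an interferon-inducible DNA sensor at chr1:173747293-173766919, differed by -1.95 ± 0.5 with all libraries and -1.65 ± 0.5 without psilocybin 5 (SE, edgeR adjusted p = 0.448 and 0.628). It was at 2.96 CPM in saline 6 and 1.08 CPM in saline 7, and at 0.122 to 0.552 in the other saline libraries, against 0 to 0.412 after psilocybin. Tph1, the tryptophan hydroxylase of the pineal gland and the periphery, was at 11.8 CPM in saline 3 and at no more than 0.362 CPM in any other of the 16 libraries. Rbp3, a retinoid-binding protein of photoreceptors and the pineal gland, was at 11.3 CPM in saline 3 and at no more than 0.656 CPM elsewhere. Their log2 fold changes were -3.44 ± 0.88 and -2.12 ± 0.65 with all libraries (SE, edgeR adjusted p = 0.448 for both), and with saline 3 left out they were -0.55 for Tph1 and -0.38 for Rbp3.

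Many of the genes with the smallest p-values were at their highest in psilocybin 3. Of the 20 genes with the smallest p, 11 had their highest level of the 16 libraries in psilocybin 3 with all libraries in the fit, and 20 of 20 did without psilocybin 5. Cyp2c23, a cytochrome of arachidonic acid metabolism (chr19:44005022-44029199), was at 20.4 CPM in psilocybin 3, at no more than 0.33 in the other psilocybin libraries and at no more than 0.222 after saline. Hgd, an enzyme of tyrosine breakdown, was at 40.4 CPM in psilocybin 3 and at 0.771 CPM or less in each of the other 15, and Slco1b2, a bile acid uptake carrier, was at 33.3 CPM there and at most 3.19 elsewhere. Their log2 fold changes without psilocybin 5 were 6.61 ± 1.49, 6.03 ± 1.49 and 6.92 ± 1.67 (SE, edgeR adjusted p = 0.53 for each), and without psilocybin 3 and 5 they were 1.51, -0.05 and 3.27 (edgeR adjusted p = 1 for each).

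The 12 higher genes that DESeq2 called were of the same kind. Besides Cyp2c23, Hgd and Slco1b2 they included Cyp2e1, which oxidizes ethanol and small solvents, Cps1 of the urea cycle, Hpd of tyrosine breakdown, Fbp1 of glucose synthesis, Urah of urate breakdown, Adh1, an alcohol dehydrogenase, Abcb11, the bile salt export pump, and Rgn, a calcium-binding protein of the liver. Cyp2e1 was at 218 CPM in psilocybin 3 and Cps1 at 167, with medians after saline of 0.202 and 0.549 CPM. A list of 12 liver genes, drawn up after their levels had been seen, was summed for each library and stood at 5758 CPM in psilocybin 3, 369 in saline 6, 186 in psilocybin 1 and between 1.61 and 26.3 in the other 13. Alb, serum albumin, was at 3789 CPM in psilocybin 3. In psilocybin 3, 129 genes with at least 10 CPM were 10-fold or more above the median of the other 15 libraries, against 0 to 18 genes in each of the others.

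**Figure D4:**
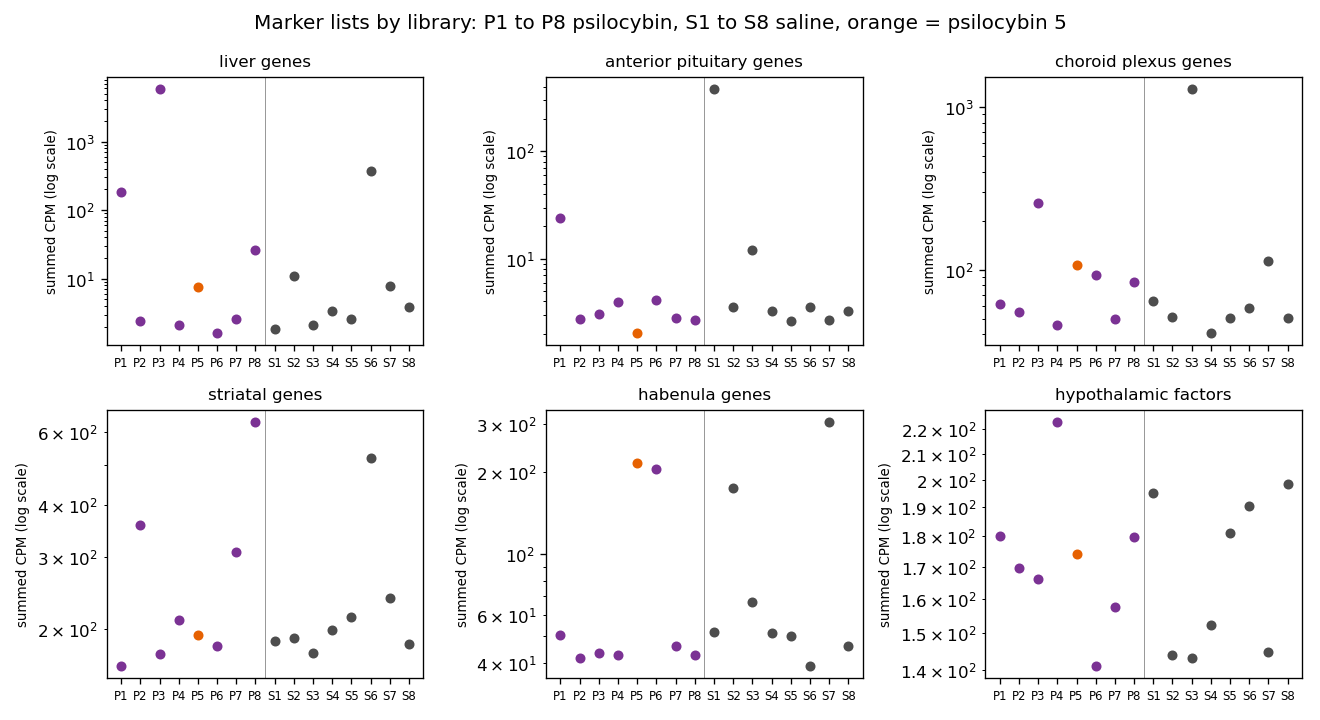
Summed CPM on a log axis of 6 marker lists in each of the 16 libraries, P1 to P8 after psilocybin (purple, psilocybin 5 in orange) and S1 to S8 after saline (grey). Liver genes stand out in P3 (5758), pituitary genes in S1 (378), choroid plexus genes in S3 (1280), striatal genes in P8 (634) and S6 (520) and habenula genes in S7 (304), while the hypothalamic factors lie between 141 and 223 in all 16.

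Markers of other cell types and of neighbouring tissues were summed in each library and tested gene by gene. Of 10 neuronal and 10 oligodendrocyte markers 0 reached an unadjusted p under 0.05 in either fit. Of 10 astrocyte markers Aldh1l1 was higher at that level with all libraries, and of 12 microglial markers Aif1, against 8.68% of all genes. Both were highest in psilocybin 5, and 0 of either list reached it without that library. Choroid plexus genes summed to 1280 CPM in saline 3 and 257 in psilocybin 3, against 40.8 to 113 in the other 14, and their median log2 fold change was -0.57 with all libraries and -0.54 without psilocybin 5. Of these genes, 2 of 9 tested (Kl and Kcne2) were lower at an unadjusted p under 0.05 with all libraries and 1 of 8 (Sostdc1) without psilocybin 5, against 0.928% and 0.434% of all genes. Pituitary genes summed to 378 CPM in saline 1, with Gh, growth hormone, at 330 CPM, and Gh differed by -3.23 ± 1.58 with all libraries and -3.46 ± 1.6 without psilocybin 5 (SE, edgeR adjusted p = 0.509 and 1). Genes of wound healing and acute inflammation summed to 469 CPM in saline 6, where Lcn2 was at 95.8 CPM, and to 162 to 400 after psilocybin. Of 16 tested there, Lcn2 was lower and Socs3 higher at an unadjusted p under 0.05 in both fits, against 0.928% of all genes lower and 8.68% higher with all libraries and 0.434% and 1.48% without psilocybin 5, with saline 6 the highest library for the first and psilocybin 3 for the second. Thalamus genes, at a median of -0.25 with all libraries and -0.29 without psilocybin 5, held 0 of 10 at an unadjusted p under 0.05, with 9 and 10 of 10 at a negative fold change in these fits. Over all genes, 9060 of 18971 and 9371 of 18890 were negative. Of 10 endothelial and 8 mural markers 0 reached an unadjusted p under 0.05 in either fit, with a median of -0.19 for the first list with all libraries and -0.13 without psilocybin 5. Rarres2 of 10 tanycyte and ependymal markers and C1ql1 of 8 markers of oligodendrocyte precursors were higher at that level with all libraries, against 8.68% of all genes, and neither was without psilocybin 5. The part of these tissues in the fold changes of other genes was not tested.

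Psilocybin 5 differed from the other libraries by gene length. It had 27490537 counted reads, the most of its group, and the share of all mitochondrial transcripts was 4.37%, within the range of the others, while 10 protein-coding mitochondrial genes summed to 25313 CPM, the lowest of the 16, against 28939 to 39793 in the others. Against the median of the other 15 libraries, genes with 500 to 1000 bases of exon were at a median of 0.74 on the log2 scale and genes over 8000 bases at a median of -0.87. In the other 15 libraries, the medians for these 2 classes lay between -0.12 and 0.12. Over genes, Spearman's rank correlation of the ratio with length was -0.52 in psilocybin 5 and between -0.178 and 0.257 in the other 15, where genes are not independent of each other. Of 18971 genes, 27.9% were over 2-fold away from the median of the other libraries, against 0.0527% to 2.18% in each of the others.

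The genes that set psilocybin 5 apart were chosen by its level alone and carry no test. Bc1, a short neuronal RNA of 168 bases, was at 5472 CPM against a median of 475 in the others, Pcsk1n, a proSAAS prohormone, at 1651 against 175, and Rpl36, a ribosomal protein, at 419 against 61.1. Gm1673, Tmem160, C1qtnf4 and Oxt were also among the 10 highest ratios, which ran from 6.8 to 11.5. Hpx and Hp, liver and acute phase genes, were among them at 3.06 and 5.49 CPM, against medians of 0.271 and 0.807 CPM in the others. Both levels were below the mean of 10 CPM that the choice required. These 2 genes met it only through higher levels in other libraries. At the other end, Aff2, a nuclear regulator, was at 0.479 CPM against 26.3 and Plcxd3, a phospholipase, at 0.368 against 19.9, with Gm38394, Gm43980 and B230209E15Rik beside them. Summed over 80 genes, cytosolic ribosomal proteins were at 35803 CPM in psilocybin 5 and at 7984 to 11473 in the other 15.

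The PFC library of the same mouse did not show this pattern. Its medians against the other 14 PFC libraries at 4 weeks were 0.0091 for genes of 500 to 1000 bases and -0.07 for genes over 8000 bases, its correlation with length was -0.1, and its quality weight was 0.603. In the comparison of the groups, the median log2 fold change of genes of 500 to 1000 bases was 0.22 with psilocybin 5 and -0.0062 without it, and that of genes over 8000 bases was -0.08 and -0.0015. Many of the peptide transcripts above are short, with listed lengths of 537 bases for Oxt, 566 for Npy and 1318 for Pomc, whereas Htr2c has 9328. The part of gene length in their values was not tested gene by gene.

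**Figure D5:**
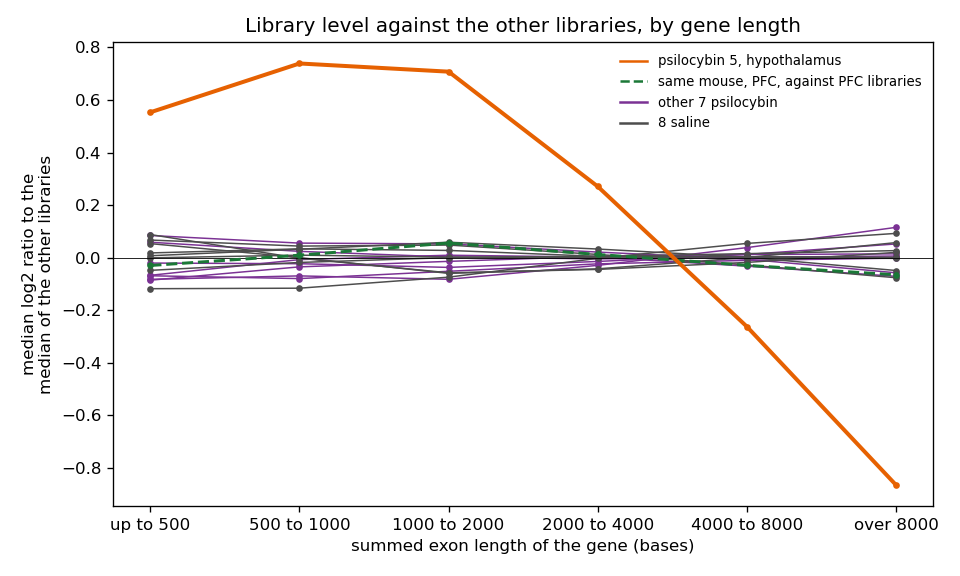
Median log2 ratio of each library to the median of the other libraries of its region at 4 weeks (y axis) in 6 classes of summed exon length (x axis), with psilocybin 5 in orange, the PFC library of the same mouse dashed in green, the other 7 psilocybin libraries in purple and the 8 saline libraries in grey. Psilocybin 5 runs from 0.74 for genes of 500 to 1000 bases to -0.87 for genes over 8000 bases, and the other lines stay between -0.12 and 0.12.

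The response at 4 weeks was set against that at 3 h in the hypothalamus by the difference of the fold changes, with 15 libraries of other mice at 3 h. The edgeR quasi-likelihood test called 0 of 18971 genes, with 999 at an unadjusted p under 0.05 and 431 without psilocybin 5, and DESeq2 and weighted voom also called 0. The smallest p belonged to the transcript 2900079G21Rik (chr9:112234277-112348925, overlapping Arpp21 on the other strand). Its CPM was 0.671 ± 0.15 after psilocybin and 1.07 ± 0.315 after saline at 3 h, and 1.26 ± 0.726 and 0.741 ± 0.243 at 4 weeks (SD, 7 saline libraries at 3 h and 8 in the other groups). The difference of the log2 fold changes was 1.39 ± 0.32 with all libraries and 1.10 ± 0.28 without psilocybin 5 (SE, edgeR adjusted p = 0.902 and 1), and psilocybin 5 was the highest library at 2.98 CPM.

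The response of the hypothalamus was set against that of the PFC at 4 weeks in the same way, with PFC libraries of the same mice. The PFC psilocybin group held 7 libraries. The edgeR and DESeq2 fits did not model that both regions came from the same mice, while weighted voom took the mouse as a random effect. The edgeR quasi-likelihood test called 0 genes, with 1269 at an unadjusted p under 0.05 and 538 without psilocybin 5, and weighted voom called 0. DESeq2 called 64, all in the direction of a higher response in the hypothalamus, and 69 without psilocybin 5. Of the 64, 60 had their highest hypothalamic psilocybin level in psilocybin 3, and 55 had their highest PFC saline level in PFC saline 8. The smallest p in edgeR belonged to Calcr, the calcitonin and amylin receptor, which lowers food intake. Calcr was at 25.3 ± 6.48 CPM after psilocybin and 26.6 ± 5.89 after saline in the hypothalamus (SD, n = 8), and its own log2 fold change there was -0.09 ± 0.28 (SE). In the PFC it was at or near 0, at most 0.161 CPM after psilocybin and at most 3.18 after saline, and the difference of the fold changes was 3.79 ± 0.89 with all libraries and 3.91 ± 0.9 without psilocybin 5 (SE, edgeR adjusted p = 0.216 and 0.115).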

How the data were processed

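Libraries were prepared from total RNA of 64 samples of hypothalamus and prefrontal cortex (PFC), taken 3 h or 4 weeks after 3 mg/kg psilocybin or saline, and sequenced on an Illumina instrument. The authors demultiplexed the reads with bcl2fastq 2.20.0, aligned them with STAR 2.7.2b to GRCm38 with GENCODE vM25, and counted them per gene with featureCounts 1.6.2. The deposited values are these raw counts, not normalized, for 55401 genes, of which 55141 carried a symbol. The library kit was stranded and only pairs whose ends mapped to one strand were kept, but whether reads were assigned to genes by strand is not given in the sources used here, so genes that overlap another on the other strand (here Agrp, Pmch, Htr1b, Hpd, Sult1a1, Syp and 2900079G21Rik) are uncertain to that extent.

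Counts were analysed in R 4.3.3 with edgeR 4.0.16. Quasi-likelihood tests were fitted to 62 libraries with a mean for each group of region, treatment and time and with the extraction pool as covariate, TMM scaling and filterByExpr at a minimum count of 10. The 2 libraries left out had under 1000000 reads and were not among the 16 compared here. The study also left out a library enriched in wound healing and immune genes, which the sources used here do not name, and none was left out for that reason here. Genes were called at a Benjamini-Hochberg adjusted p under 0.05 over all genes tested. A single gene had no standard error. Totals ran from 8061033 to 33947174 counted reads for the 16 libraries. Intervals rest on a spread between libraries that was estimated over the whole fit, not over these 16 alone. Standard errors were derived from the fold change and the F statistic. Levels are CPM on the TMM-scaled library size, and TPM used the lengths in the table. The pseudocount set for ratios between libraries was 0.5 CPM. It was not added to the ratios by which genes were named for the library of lowest quality weight. Before averaging, within-group pairs of libraries were compared, and none agreed within sampling noise (the lowest chi-square per degree of freedom was 4.01 over 56 pairs).

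Alternatives were 31 settings, among them DESeq2 1.42.0, weighted voom in limma 3.58.1 with the mouse as a random effect (consensus correlation 0.0282), each pool alone, each mouse left out, and the cage number as a block. Same-numbered mice of the 2 groups carry the same cage number in the labels. Their deviations from the group means correlated by 0.121 on average (lowest -0.226, highest 0.483), and 2 of 8 psilocybin libraries correlated best with their own number. The block is given beside the counts it moved.

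Named genes were the 3 higher and 3 lower genes with the smallest p with and without psilocybin 5, a fixed set of serotonin receptors, feeding peptides, hormones and their receptors with Bdnf, up to 15 genes called by DESeq2 or weighted voom, the member of each list with the smallest p, the gene with the smallest p in each difference contrast, and, for psilocybin 5, the 10 highest and 5 lowest ratios to the median of the other libraries among genes with a mean of at least 10 CPM (10521 genes, with 2 at a median of 0 left out). Results of 2 genes that this rule named are not reported here. Tac2, Nts, Mchr1, Fosb, Fos, Mt1, Ntrk2, Dlg4, Otp and the markers of other tissues named with values were chosen after their values were seen. The comparison, the lists and the alternatives were chosen with earlier results of these data known. The lists of liver, habenula, basal forebrain, midbrain and mitochondrial genes were added after levels had been seen.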

Additional observations from a re-analysis of the deposited data

Results flagged for a closer look

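In a group of 8 libraries, a library stood apart where its gap to the nearest other, as a share of the group's range, exceeded the 95% critical value of Dixon's test, which chance gives in about 1 of 20 groups. Among the named genes and the summed marker lists this held in 37 of 122 groups, and 15 of the 37 were psilocybin 5. Many of these genes were named for small p-values and some lists were added after levels had been seen, so the count is a description and is not set against the chance rate.

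Psilocybin 5 was the highest psilocybin library for the peptides Pomc (147 CPM, next 48.8), Cartpt (176, next 59.7), Agrp (26.6, next 9.36), Npy (50.2, next 24.0), Sst (356, next 128), Oxt (1201, next 181), Avp (1121, next 280) and Nucb2 (26.8, next 20.2). It was also the highest for Scg5 (402 CPM, next 202), Syp (1113, next 775) and Jund (115, next 50.5), and for the summed markers of tanycytes and ependyma (499 CPM, next 301) and of blood (875 CPM, next 390). It was the lowest for the receptor genes Htr2c (36.4 CPM, next 92.4) and Grin3a (68.7 CPM, next 99.8).

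Psilocybin 3 stood apart for the liver genes Cyp2c23 (20.4 CPM, next 0.33), Hgd (40.4, next 0.771), Slco1b2 (33.3, next 3.19) and Sult1a1 (26, next 14.5). The same held for the summed liver markers (5758 CPM, next 186), complement and interferon genes (842 CPM, next 353) and choroid plexus markers (257 CPM, next 107). The part of liver transcripts in the other sums was not tested. Within the psilocybin group, psilocybin 4 was the highest library for Hcrt (129 CPM, next 58.1), psilocybin 1 for pituitary markers (23.8 CPM, next 4.12), psilocybin 2 for endothelial markers (239 CPM, next 194) and psilocybin 8 for striatal markers (634 CPM, next 358).

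Among the saline libraries, saline 3 stood apart for Lepr (10.9 CPM, next 5.63), Tph1 (11.8, next 0.222), Rbp3 (11.3, next 0.547) and choroid plexus markers (1280 CPM, next 113). Saline 6 did for liver markers (369 CPM, next 11), wound and acute phase genes (469 CPM, next 274), striatal markers (520 CPM, next 239), Ifi204 (2.96 CPM, next 1.08) and, at a level of few reads, Cyp2c23 (0.222 CPM, next 0.0425). Saline 1 did for pituitary markers (378 CPM, next 12.2), and saline 8 for Hgd at 0.293 CPM, with 0.148 next, again a level of few reads.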

How the results depend on the processing

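The count of 0 called genes held in edgeR under every setting run, and weighted voom gave 0 as well. DESeq2 called 13 genes, 28 without psilocybin 5, and 64 and 69 for the difference between hypothalamus and PFC. The number at an unadjusted p under 0.05 (1823) was 361 without psilocybin 5, and ran from 361 to 2578 with each library left out in turn, the highest without psilocybin 7. It was 243 when only the 16 libraries were fitted (232 without psilocybin 5), 785 in weighted voom (782), 374 in DESeq2 without psilocybin 5, and 174 without psilocybin 3 and 5, a setting chosen after seeing the data, as were DESeq2 and voom without psilocybin 5. It was 542 within pool A, 166 within pool B and 294 within pool B without psilocybin 5. With the cage number as a replicate block it was 1149, and 274 without psilocybin 5, and the block changed no call.

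Of 1365 values of 46 named genes under the alternatives, 1233 kept direction and side of the threshold, 24 passed it in DESeq2 and 108, from 29 genes, changed sign. The causes were not tested beyond the libraries left out.

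Without psilocybin 3 and 5 the log2 fold changes with a changed sign were Hgd -0.049, Htr2a 0.12, Htr2c 0.048, Htr1b 0.14, Agrp -0.043, Npy -0.14, Trh -0.014, Mc4r 0.025 and Urah -0.067. In weighted voom they were Hgd -0.58, Htr2a 0.16, Htr2c 0.050, Htr1b 0.14, Pomc -0.014, Agrp -0.39, Npy -0.26, Fbp1 -0.37, Urah -0.45, Sst -0.031, Scg5 -0.0035, Jund -0.021 and Slco1c1 0.031, and in weighted voom without psilocybin 5 Hgd -0.63, Htr2a 0.16, Htr2c 0.057, Htr1b 0.14, Pomc -0.031, Agrp -0.41, Npy -0.27, Fbp1 -0.39, Urah -0.48, Sst -0.041, Scg5 -0.0075, Jund -0.033 and Slco1c1 0.038. With the 15 libraries without psilocybin 5 fitted alone they were Htr2a 0.098, Htr2c 0.0023, Htr1b 0.083, Agrp -0.040, Npy -0.11 and Mc4r 0.024. With the replicate block and without psilocybin 5 they were Htr2a 0.074, Htr1b 0.048, Npy -0.076, Scg5 -0.0012 and Syp -8.7e-05, and with the block and all libraries Htr1a -0.0085. Within pool A they were Htr2a 0.12, Htr1b 0.011 and Mc4r 0.18, within pool B Htr1a -0.099, Pmch -0.0085 and Slco1c1 0.015, and within pool B without psilocybin 5 Htr2a 0.073, Htr2c 0.16, Htr1b 0.17, Pomc -0.63, Cartpt -0.053, Agrp -0.66, Npy -0.36, Pmch -0.079, Oxt -0.11, Avp -0.034, Trh -0.24, Cyp2e1 -1.45, Htr1f 0.097, Sst -0.11, Qrfp -0.021, Nucb2 -0.013, Scg5 -0.047, Syp -0.014, Jund -0.31, Grin3a 0.014, Gabbr2 0.012, Rora 0.019, Sult1a1 -0.041 and Slco1c1 0.19. In DESeq2 without psilocybin 5 they were Htr2a 0.093, Htr1b 0.072, Npy -0.066, Mc4r 0.0081 and Scg5 -0.00072, and without a filter on low counts Htr1a -0.021. With each library left out in turn, Htr2a ran from -0.11 to 0.095, Htr2c from -0.18 to 0.00082, Htr1a from -0.073 to 0.10, Htr1b from -0.096 to 0.072, Npy from -0.11 to 0.30, Mc4r from -0.10 to 0.053, Fbp1 from -0.11 to 5.86 and Scg5 from -0.0014 to 0.21.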

Other observations

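Striatal markers, outside the dissected region, had more positive than negative fold changes after psilocybin. With all libraries 10 of 10 had a positive log2 fold change, with a median of 0.23, and without psilocybin 5 9 of 10 did, with a median of 0.29, and 0 of 10 reached an unadjusted p under 0.05. Over all genes, 9911 of 18971 and 9519 of 18890 were positive in these fits. The 10 are markers of the same tissue and are not independent of each other. Without psilocybin 3 and 5 all 10 were positive, with a median of 0.36. The sum of these markers had a median of 202 CPM after psilocybin and 195 after saline. It was 634 CPM in psilocybin 8, 358 in psilocybin 2 and 308 in psilocybin 7, and 520 CPM in saline 6 with at most 239 in the other saline libraries. Habenula markers, a list added after levels had been seen, were on the lower side, with a median of -0.42 with all libraries and -0.52 without psilocybin 5 and 0 of 8 at an unadjusted p under 0.05. Their sum was 304 CPM in saline 7, 216 in psilocybin 5, 205 in psilocybin 6 and 175 in saline 2, and between 38.9 and 67 CPM in the other 12 libraries. Saline 7 was also the library with the highest interferon-induced transcripts Ifit1 (16.4 CPM) and Ifit3 (33.4 CPM). Of the other lists added at that stage, 0 of 6 basal forebrain cholinergic genes, 0 of 5 midbrain dopamine genes and 0 of 7 tested mitochondrial genes reached an unadjusted p under 0.05 in either fit, with medians of 0.06, -0.16 and -0.05 with all libraries and 0.06, -0.34 and -0.03 without psilocybin 5. The midbrain dopamine genes had a negative fold change in 4 of 5 with all libraries and in 5 of 5 without psilocybin 5. Over all genes it was 9060 of 18971 and 9371 of 18890. Among lists of 12 complement and interferon genes and 8 markers of cortex and hippocampus, C3 and Tbr1 were higher at an unadjusted p under 0.05 without psilocybin 5, against 1.48% of all genes, and 0 were with all libraries, against 8.68%. C3 was at 489 CPM in psilocybin 3 and differed by 3.01 without psilocybin 5 and by -0.09 without psilocybin 3 and 5, where 0 of the 12 were higher and 2 were lower at an unadjusted p under 0.05, against 84 and 90 of all 19092 genes. Lists of peripheral myeloid cells, meninges and blood held 0 in either fit.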
